A study of Mus musculus with 4 samples.

Results

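MIZ-1 peaks were called at the promoters of 4622 protein-coding genes at sites that were found both with and without its POZ domain, 5292 peaks in all. These peaks are the shared protein-coding promoter peaks of a ChIP-seq experiment on splenic B cells. A peak of the MIZ-1WT list was chosen when its nearest annotated start site belonged to a protein-coding gene, when it covered that site or lay less than 2000 bp before or 1000 bp after it, and when at least 1 bp of it overlapped any MIZ-1DPOZ peak. They made up 15.5% of the 34209 MIZ-1WT peaks (95% Wilson interval 15.1 to 15.9) and 73.5% of the 7204 at protein-coding promoters (72.4 to 74.5). Under a stricter rule, a reciprocal overlap of 50%, 2451 peaks would remain. The other 1912 MIZ-1WT peaks at protein-coding promoters are called MIZ-1WT-only here. Of the 12450 protein-coding promoter peaks among the 78357 MIZ-1DPOZ peaks, 7302 overlapped no MIZ-1WT peak and are called MIZ-1DPOZ-only. The study itself reported fewer annotated promoter regions for MIZ-1WT, for MIZ-1DPOZ and for both. The reason for this difference was not tested.

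The cells were B220+ splenocytes, taken with magnetic beads from mice on a C57BL/6 background. MIZ-1DPOZ mice carry a floxed Zbtb17 allele from which Mb1-Cre, driven by the Cd79a promoter and thus active in the B lineage, removes the exons of the POZ domain. MIZ-1WT mice were the controls. Each genotype gave 1 ChIP library, made with the antibody H-190, so no value below has a replicate and no p-value is given. Intervals cover counting error only. The peak files hold no expression values, so that the labelled cell type was not checked against its markers here.

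MIZ-1 (encoded by Zbtb17) is a transcription factor with a POZ domain at one end and an array of C2H2 zinc fingers that contact DNA. The POZ domain lets MIZ-1 form complexes with itself and with other POZ proteins. In lymphocytes MIZ-1 is known for its roles in early B and T cell development. It acts both as an activator and, together with MYC, as a repressor, and genes of vesicle transport and autophagy are among its known targets.

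The height of a peak is given as its summit pileup, the number of fragments over the summit, which was solved from the deposited scores. For comparison, the background most often set for a peak was 0.86 fragments without and 1.35 fragments with the deletion, a ratio of 1.57, which became 1.34 when each was divided by the smallest peak width of its list, 148 and 173 bp. The members had a median pileup of 9 fragments in the MIZ-1WT list (quartiles 8 and 11) and 13 in the MIZ-1DPOZ list (11 and 16), so that most of them rest on few fragments. A −log10 q of at least 5 was reached in both lists by 1202 members (22.7%). These heights, and the widths, q-values and summit distances below, come from the contrast that chose the peaks and are descriptions.

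A part of the tallest members held a recurrent sequence. It is shown first because few of the lower members held it, and it was looked for only after the values had been seen. Of the members whose summit sequence is found once in the genome and is less than 50% soft-masked as repeat, 88 had a MIZ-1WT pileup of at least 20, at 88 genes, and are called strong members. A search by expectation maximisation over 50 bp on either side of their summits gave the 25-base pattern CAGGCNNNNNNAGNCGAGCNCCGAG, in which 17 letters are fixed and N is any base. The lines that follow are matches at strong members with at least 13 matching letters and large q-value support in both lists (the smaller of the paired −log10 q). Capitals mark the bases that match a fixed letter of the pattern, and each line is read 5′ to 3′ on the strand that matches.
Vamp4: ccCAGcgccaggcgGcgGAGCgCCGAGtc
Heatr5a: ggCAGGCgtgactActCcAcCgCCGAG
Dcp1b: aggAaGCcccctcAatCGAcCgCCGAGcg
Taf5l: cgCAGaCatcgctAGagGAGCgCCGAGcg
Snx18: gcCAGaCgagagcAagCGAcggCCGAGca
Wiz: ctCAGGCgagagcAGcgGAGCgCCGcGcg
Pdcd5: ctCAGGCatcaaaAGtCGAGtgCCGAGtt
Hipk1: acCAGaCccgacaAGtgGAGCcCCGAGcg
Zmiz2: ccCAGGCcagagcAGcgGAGCcCCGAGcg
U2surp: tgCcaGgccgaatAGcCGAaCgCCGAGac
Scp2: gcCAGaCctggcgAGtCGAGCaCaGAGcg
On mm10 these stretches are Vamp4 (chr1:162570594-162570622, plus strand), Heatr5a (chr12:51971413-51971439, plus strand), Dcp1b (chr6:119175235-119175263, minus strand), Taf5l (chr8:124021410-124021438, minus strand), Snx18 (chr13:113618641-113618669, plus strand), Wiz (chr17:32364470-32364498, plus strand), Pdcd5 (chr7:35647512-35647540, plus strand), Hipk1 (chr3:103791298-103791326, plus strand), Zmiz2 (chr11:6389286-6389314, minus strand), U2surp (chr9:95511952-95511980, plus strand), Scp2 (chr4:108071404-108071432, plus strand).

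The members also differed in how much CpG they held, and the next lines give the MIZ-1WT summit with 50 bp on either side, on the strand of the gene, with each CG in capitals. Heatr5a and Snx18 are among the tallest members. Sbk1 and Ikzf2 are among those with the highest ratio of observed to expected CpG in single-copy members with a −log10 q of at least 5 in both lists and no UTR in the window, and Naca is among those with the lowest.
Heatr5a: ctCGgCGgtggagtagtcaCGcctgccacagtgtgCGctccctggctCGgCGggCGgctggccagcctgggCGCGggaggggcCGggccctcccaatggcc
Snx18: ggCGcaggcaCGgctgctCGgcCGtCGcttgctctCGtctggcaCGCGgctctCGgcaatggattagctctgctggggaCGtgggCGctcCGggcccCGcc
Sbk1: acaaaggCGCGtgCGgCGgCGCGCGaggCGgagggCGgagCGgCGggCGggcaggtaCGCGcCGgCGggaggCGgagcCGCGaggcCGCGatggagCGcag
Ikzf2: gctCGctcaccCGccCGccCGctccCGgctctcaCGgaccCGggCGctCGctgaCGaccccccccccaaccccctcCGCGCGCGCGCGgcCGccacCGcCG
Naca: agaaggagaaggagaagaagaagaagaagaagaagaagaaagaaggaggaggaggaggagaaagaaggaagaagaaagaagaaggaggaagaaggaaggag
On mm10 these windows are Heatr5a (chr12:51971339-51971439, minus strand), Snx18 (chr13:113618583-113618683, minus strand), Sbk1 (chr7:126272483-126272583, plus strand), Ikzf2 (chr1:69687359-69687459, minus strand), Naca (chr10:128034034-128034134, plus strand). None of them overlaps an annotated UTR. The Naca window is rich in purines and lies more than 1000 bp before the start site.

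The members fell into a broad low class and a small tall one. By MIZ-1WT pileup, 1054 members had 7 fragments or fewer, 2070 had 8 to 9, 1606 had 10 to 12 and 435 had 13 to 19, while 54 had 20 to 39 and 73 had 40 or more. Over the 4 lower classes the summit lay at a median of 129, 119.5, 112 and 96 bp after the start site, and at 20 to 39 and 40 or more it lay 3 and 29 bp before it. The share with the summit within 100 bp of the start site ran from 31.4% to 33.3% in the 4 lower classes, and was 50% at 20 to 39 (37.1 to 62.9) and 61.6% at 40 or more (50.2 to 71.9). The 4 lower classes were thus close to each other in both values, and the tall classes stood apart from them. Of the 127 members with at least 20 fragments, 39 had repeated or soft-masked summits and were left out of the strong members.

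**Figure D1:**
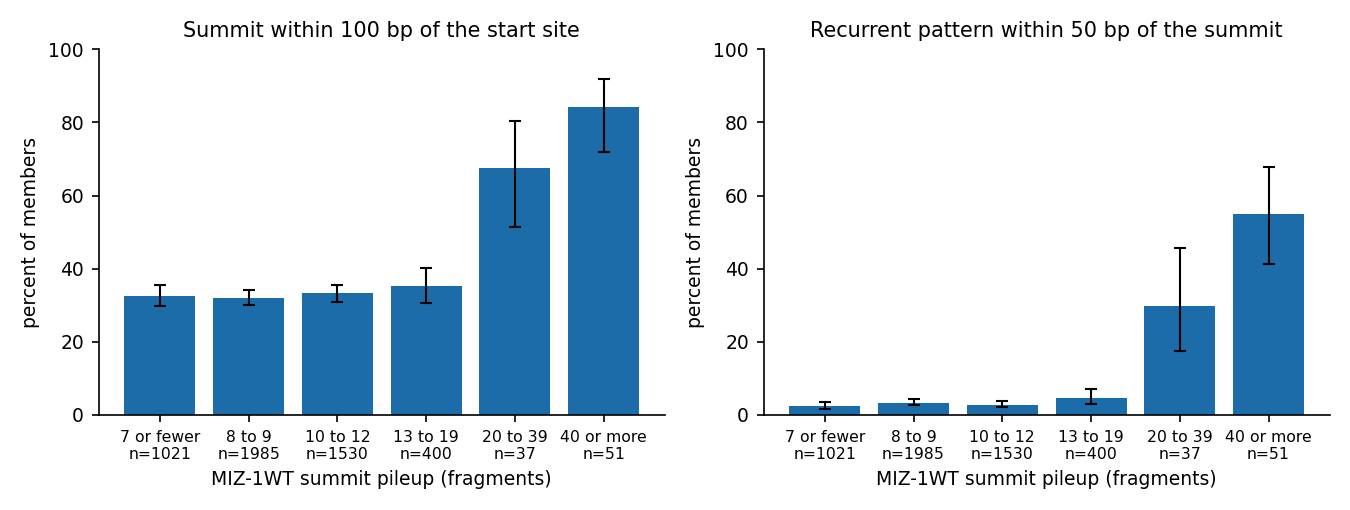
Percent of members (vertical axis) by MIZ-1WT summit pileup in fragments (horizontal axis), for members with single-copy summits that are under 50% soft-masked, with the summit within 100 bp of the start site (left) and with the 25-base pattern within 50 bp of the summit (right). Bars are shares and lines 95% Wilson intervals; the share near the start site goes from 35.3% at 13 to 19 fragments to 84.3% at 40 or more, and the share with the pattern from 4.50% to 54.9%.

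The strong members had summits at the start site that nearly coincided in both libraries. Their MIZ-1WT summit lay within 100 bp of the start site in 68 of 88 (77.3%, 67.5 to 84.8), against 32.6% (31.3 to 33.9) of the 4997 single-copy members with fewer fragments. Of these 4997, 61 were at least 50% soft-masked, a limit set only for the strong members. The peak of the strong members covered the start site in 87.5%, against 38.3%. The MIZ-1WT and MIZ-1DPOZ summits lay a median of 24 bp apart (quartiles 7 and 49.5), against 93 bp (41 and 179).

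Vamp4, a SNARE of traffic between endosomes and the Golgi, had the largest q-value support of the single-copy members. Its pileup was 146 fragments in the MIZ-1WT library and 89 in the MIZ-1DPOZ library, with the summits 5 and 28 bp after the start site. The peak was therefore tall in both libraries and stood within 100 bp of the start site.

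Other genes with large q-value support ranged over several cellular functions. Heatr5a had 133 and 78 fragments in the MIZ-1WT and MIZ-1DPOZ libraries, and Snx18, a sorting nexin of endosomes, had 141 and 78. Dcp1b, a cofactor of mRNA decapping, had 82 and 74. Taf5l, a subunit of the SAGA coactivator, had 68 and 89. Sfi1, a centrin-binding protein of the centrosome, had 166 and 286 and was one of the few strong members whose ratio was above that of the backgrounds. Its fold enrichment over the local background was only 7.02 and 7.85, against 32.2 and 25.7 at Vamp4. The local background at Sfi1 was thus far above the commonest one, and its height is not comparable with that of Vamp4. The 10 highest genes also held the predicted genes Gm10800 and Gm10801, which are close to each other on chromosome 2. Both had 296 fragments in the MIZ-1WT library, the highest value in the list and equal to 2 fragments a position over the smallest peak width. Their fold enrichment over the local background was only 4.63 and 4.62 in the MIZ-1WT library and 4.90 and 4.85 in the MIZ-1DPOZ library. GC contents at the summit were only 35.8% and 31.8%, and soft-masking was 97% and 44.8%. Gm10801 lay below the masking limit of 50% and is therefore counted among the strong members. Its height, like that of Sfi1, is not comparable with that of Vamp4.

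Other strong members, named after their values were seen, included genes of membrane traffic, transcription, DNA repair and organelles. In membrane traffic there were the exocyst subunit Exoc2 (112 and 45 fragments in the MIZ-1WT and MIZ-1DPOZ libraries), the Rab effector Rbsn (64 and 53), the ESCRT subunit Vps28 (28 and 35) and the lipid transfer protein Vps13d (50 and 29). In transcription and chromatin there were the TFIID subunit Taf3 (108 and 46), the acetyltransferase Kat14 (69 and 63), the remodeller Ino80 (65 and 31) and the histone chaperone Vps72 (20 and 31). In DNA repair there were the BRCA2 partner Palb2 (45 and 17), the nuclease Fan1 (33 and 12), the TFIIH helicase Ercc2 (34 and 10) and the ubiquitin ligase Rnf8 (22 and 28). For peroxisomes there were the import factors Pex13 (42 and 36) and Pex14 (22 and 22), and for mitochondria the ribosomal protein Mrps23 (45 and 40), the assembly factor Cox19 (64 and 16) and the complex I subunit Ndufa5 (24 and 12). Rpl22, a ribosomal protein of the large subunit, had 38 and 15 fragments, with the summit 55 bp before the start site in the MIZ-1WT library and 159 bp after it in the MIZ-1DPOZ library.

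The ratio of MIZ-1DPOZ to MIZ-1WT pileup had a median of 0.708 over the strong members (quartiles 0.488 and 0.913), where the backgrounds of both lists had a ratio of 1.57, or 1.34 per base of the smallest width. It was below these values at 86 and 82 of 88. Over the 4997 single-copy members with fewer fragments the median was 1.44 (1.17 and 1.78), between both values. The strong members were chosen on the MIZ-1WT pileup, which by itself lowers this ratio. Chosen on the MIZ-1DPOZ pileup instead, at 27 fragments or more, 62 members had a median ratio of 0.847. Tall peaks of 1 list only were nearly absent at protein-coding promoters: 2 MIZ-1WT-only peaks (Vmn2r102 with 26 fragments and Bend5 with 21) met the limits of the strong members. No MIZ-1DPOZ-only peak had 27 fragments under the same limits.

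**Figure D2:**
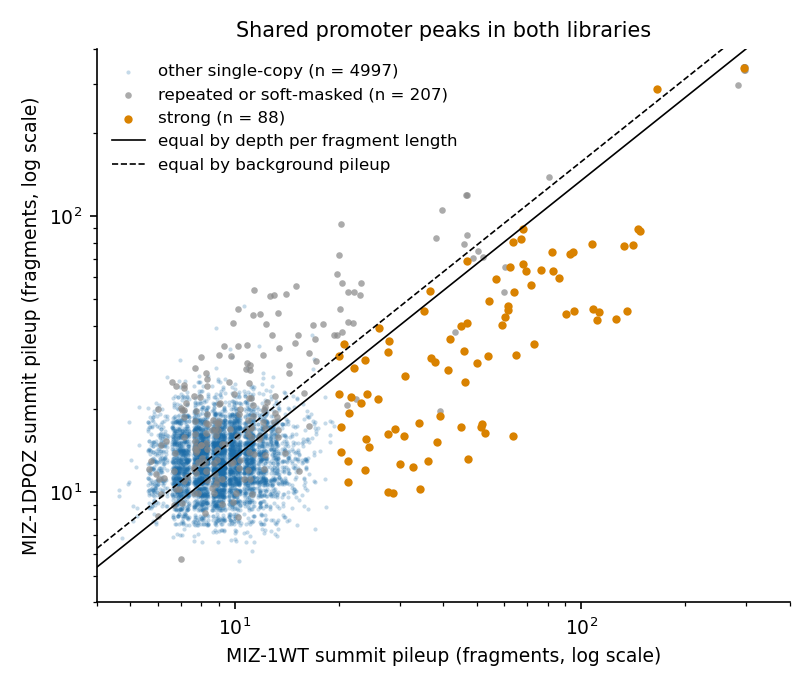
Summit pileup in fragments of each member in the MIZ-1WT (horizontal) and MIZ-1DPOZ (vertical) library, both on log axes, with points moved by up to 0.4 fragments so that they do not hide each other and lines at the ratio of the background pileups (dashed, 1.57) and at the same ratio per base of the smallest width (solid, 1.34). Orange points are the 88 strong members, most of which lie below both lines, blue points the 4997 other single-copy members around them, and grey points the 207 members with repeated or soft-masked summits.

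The pattern was found near the summit of 39 of the 88 strong members (44.3%, 34.4 to 54.7) when at least 13 of its 17 letters had to match on either strand. With 1 letter more the share was 28.4%, with the search kept within 31 bp of the summit it was 25%, and among the 199 members with a pileup of at least 15 it was 22.6%. These alternatives were chosen after seeing the data. At 13 letters it was found in 3.04% (2.60 to 3.56) of the 4997 lower single-copy members, 1.75% of the MIZ-1WT-only and 1.72% of the MIZ-1DPOZ-only single-copy summits, and 1.06% of windows of the same length centred on the 41525 protein-coding start sites. The strong members gave the pattern and therefore had to hold it more often. The hexamers that seeded the search were chosen for their excess over the 4997 lower members, so that share is not independent either. Members with 13 to 19 fragments, which entered only as part of this contrast, held it in 18 of 400 (4.50%, 2.87 to 7). Of 102 strong peaks away from promoters that were shared and under the same limits, 1 held it. Windows 200 bp to either side of the strong summits held it in 3 and 2 of 88.

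The middle of the matches lay a median of 18 bp from the summit. The search reached only 50 bp to either side, so this distance could not be large. Of the 39 matches, 30 were on the strand opposite to the gene. Strong members with the pattern had the MIZ-1WT summit within 100 bp of the start site in 34 of 39, and those without it in 34 of 49. Their median pileup was 54 fragments, against 37 without it, and their median distance between the summits of both libraries 11 bp, against 30 bp. At the MIZ-1DPOZ summits of the same members the pattern was found in 32 of 88. With a median of 24 bp between the summits, most of these windows overlap those that gave the pattern, so this count is not independent. Strong members with and without a match were thus both mostly near the start site.

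Shorter words were counted on both strands of the same windows. TCGA fits the AGNCGA of the pattern. Placed there, ATCGA and CAATCG have an A where the pattern fixes a G. CAATCG and ATCGA share the letters ATCG, and ATCGA contains TCGA. TCGA was found at 47 of 88 strong members (53.4%, 43.1 to 63.5), 9.21% of the lower single-copy members and 8.66% of start-site windows. ATCGA was found at 36.4%, 1.5% and 2.33%. CAATCG was found at 21.6%, 0.680% and 1.53%. These words were picked for their excess at the strong members.

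Seen from the start sites, a part of the genes with the pattern had no shared peak. Windows with 50 bp on either side of annotated start sites held it with at most 3 mismatches at 60 genes, of which 32 (53.3%, 40.9 to 65.4) had a shared promoter peak. Over all protein-coding genes that share was 21.1%, and over genes with a high-CpG start site 36.6%. Without the 17 strong genes among them, 15 of 43 (34.9%, 22.4 to 49.8) had one. With at most 4 mismatches, the limit used above, the pattern was at 367 genes, of which 171 (46.6%, 41.6 to 51.7) had a shared peak, and without the 27 strong genes among them 144 of 340 (42.4%, 37.2 to 47.7). The first interval without strong genes contains the share over high-CpG genes, and the second lies above it.

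Most members lay just inside the gene. The MIZ-1WT summit of all members was a median of 112 bp after the start site (quartiles 26 bp before and 292 bp after), and 30.8% of the summits were upstream. Of the 5292 summits, 214 lay more than 500 bp before the start site, 600 lay over 100 and up to 500 bp before it, 817 lay 1 to 100 bp before it and 915 from the start site to 100 bp after it. A further 1469 were over 100 and up to 300 bp after it, 775 were over 300 and up to 500 bp after it and 502 beyond that. Most summits were thus inside the gene. At the 2131 members whose gene has 1 annotated start site, the median was 165 bp after it. A MIZ-1WT-only summit had a median of 52 bp and a MIZ-1DPOZ-only summit one of 131 bp after the start site, with 22.6% and 23.9% more than 500 bp away, against 13.5% of the members.

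Relative to the assigned gene, 31.9% of the member summits were in an intron, 31% in a UTR, 15.2% in a coding exon and 21.9% outside the gene. For the strong members the order was different, with 50% outside the gene and 10.2% in an intron. A divergent start site of another gene on the opposite strand, up to 1000 bp upstream, was present at 11.7% of members, 11.9% of MIZ-1WT-only peaks and 13.3% of all protein-coding start sites. It was present at 18 of the 88 strong members (20.5%).

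**Figure D3:**
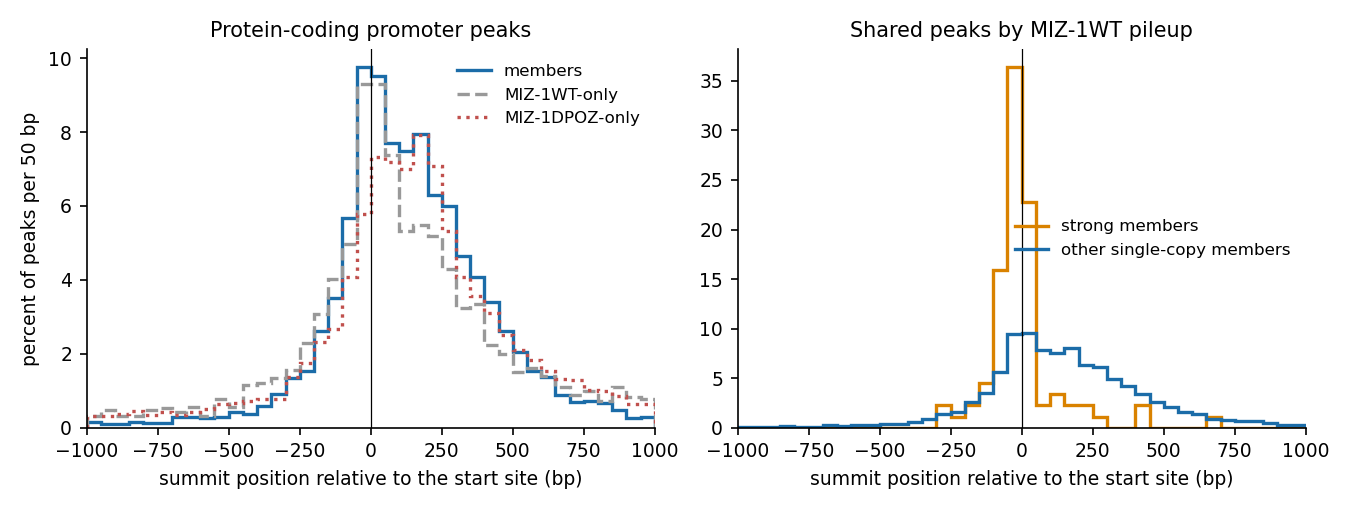
Percent of peaks per 50 bp (vertical) by the position of the summit relative to the start site in bp, positive inside the gene (horizontal), for members, MIZ-1WT-only and MIZ-1DPOZ-only peaks at protein-coding promoters (left) and for strong and other single-copy members by MIZ-1WT summit (right). Members have a peak at the start site and a shoulder after it, with a median of 112 bp, and the strong members are gathered at the start site, with a median of 15 bp before it.

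The partner of a member in the MIZ-1DPOZ list was usually a wider peak at the same gene. The partner was assigned to the same gene for 5191 of 5292 members (98.1%, 97.7 to 98.4) and lay at a promoter for 99.9%. These shares follow largely from the rule, since a partner overlaps a promoter peak and was assigned to a start site in the same way. Of the members, 5094 overlapped 1 MIZ-1DPOZ peak and 198 overlapped 2. The median width was 209 bp in the MIZ-1WT list (quartiles 163 and 294) and 358 bp in the MIZ-1DPOZ list (252 and 506), and the MIZ-1DPOZ peak was the wider one for 81.0%. At the smallest width the peak caller allowed were 811 MIZ-1WT peaks, at 148 bp, and 263 of their partners, at 173 bp. MIZ-1WT-only peaks had a median width of 172 bp and MIZ-1DPOZ-only peaks one of 235 bp. The strong members had medians of 329.5 and 445.5 bp.

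The overlap took up a median of 91.4% of the MIZ-1WT peak, and 41.0% of the MIZ-1WT peaks lay wholly inside their partner. The summits of a pair were nevertheless a median of 89 bp apart (quartiles 38 and 175), with 54.1% within 100 bp. They moved in both directions along the gene, with a median of 7 bp further downstream in the MIZ-1DPOZ list and quartiles of 79.25 bp upstream and 98 bp downstream.

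The widest members were at the predicted genes Gm21738 (3916 bp), Gm10715 (1524 bp) and Gm10722 (1517 bp). Each had 296 fragments, the ceiling of the list, at a summit that was 94.5% to 100% soft-masked. The Gm10715 and Gm10722 summit sequences had 6 and 21 copies in the genome. In all, 200 members (3.78%) had a summit sequence with more than 1 copy, and 136 (2.57%) were soft-masked over at least 50% of the window.

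The members were rich in GC and CpG. In the window of 100 bp on either side of the MIZ-1WT summit, the median GC content was 74.1% (quartiles 70.6 and 77.6). It was 70.1% for MIZ-1WT-only and 68.7% for MIZ-1DPOZ-only summits, 63.2% for shared peaks away from promoters, and 59.7% in windows of the same length around all protein-coding start sites. The windows of members held a median of 24 CpG (19 and 29), and the median ratio of observed to expected CpG was 0.882 (0.752 and 0.995). The corresponding ratios were 0.823 for MIZ-1WT-only, 0.742 for MIZ-1DPOZ-only, 0.626 for all start sites and 0.344 for the start sites of genes without a promoter peak in either list. Windows of start sites are centred on the start and those of peaks on the summit, so these windows differ in position too. The strong members had less GC (68.2%) than the lower ones (74.6%), but a higher CpG ratio (0.963 against 0.884).

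The start sites of 86.9% of the members (86.0 to 87.8) were in the high-CpG class, which holds a 500 bp window with a CpG ratio over 0.75 and over 55% GC. This was so for 78.2% of MIZ-1WT-only peaks, 66.0% of MIZ-1DPOZ-only peaks, 47.2% of all protein-coding start sites and 27.1% of the start sites of genes without a peak. Low-CpG start sites were 2.89% of those of the members and 34.1% of all. A window without any CpG was found at 31 members, among them Coil and Naca.

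**Figure D4:**
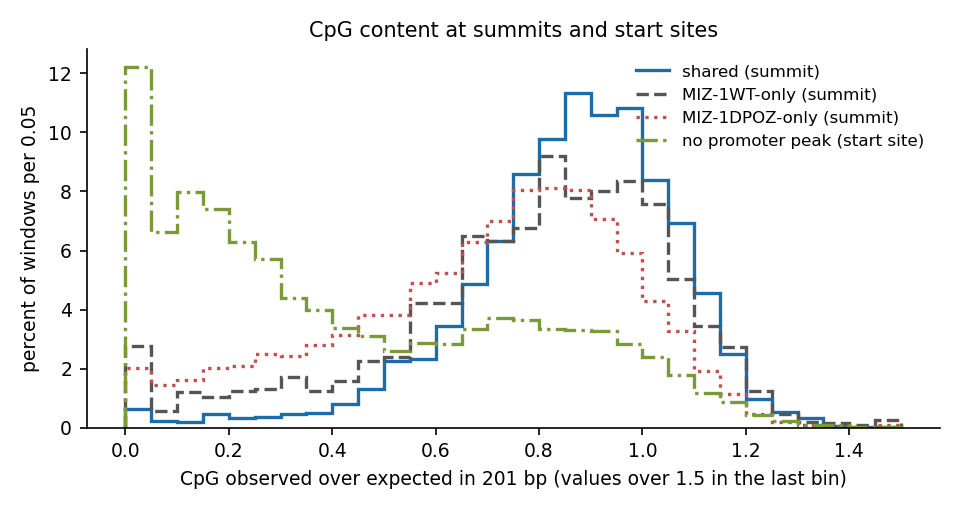
Percent of windows per 0.05 (vertical) by the ratio of observed to expected CpG within 100 bp on either side (horizontal), around the summits of shared, MIZ-1WT-only and MIZ-1DPOZ-only peaks and around the start sites of genes without a promoter peak. Shared peaks have a median of 0.882 and few windows below 0.5, and genes without a peak have a median of 0.344.

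Of 8 promoter elements counted on both strands of the same windows, the GC box alone was more frequent at members than at all start sites. The GC box of SP and KLF factors (GGGCGG) was present at 67.2% of members, 59.7% of MIZ-1WT-only and 49.7% of MIZ-1DPOZ-only summits and 40.1% of all start sites. The CCAAT box of NF-Y (CCAAT) was present at 7.45% of members and 25.4% of start sites, and the TATA box (TATAAA) at 0.567% and 7.20%. The ETS core (CCGGAA) was at 10.6% and 14.6%, the E-box bound by MYC and MAX (CACGTG) at 4.14% and 5.11%, and the YY1 core (AAGATGG) at 3.12% and 5.14%. The cyclic AMP response core (TGACGT) was at 2.59% and 6.20%, and the NRF1 core (GCGCATG) at 2.46% and 3.37%. None of these words contains another. At the strong members, the CCAAT box was present in 22.7% and the YY1 core in 10.2% of the windows, against 6.98% and 2.56% at the lower single-copy members. Since the windows of members are centred on summits and those of start sites on the start, the distance from the start site differs between them too. Base composition differs as well, with a median GC content of 74.1% at members and 59.7% at start sites, and of these words the GC box alone holds no A or T. How far the shares follow composition was not tested.

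The share of genes with a shared promoter peak varied widely between gene classes. Over all 21938 protein-coding genes it was 21.1%, and over the 11028 with a high-CpG start site 36.6%. The highest of the 21 classes was that of actin regulators, with 39 of 66 genes (59.1%, 47 to 70.1), and still 64.4% of those with a high-CpG start site. Its leading members by q-value support were Arhgef18, a guanine nucleotide exchange factor with 13 and 14 fragments in the MIZ-1WT and MIZ-1DPOZ libraries, and Actr2, a subunit of the ARP2/3 actin nucleator, with 12 and 14. No strong member was in this class.

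At a −log10 q of at least 5 in both lists, proteasome, histone, Zbtb, autophagy, SNARE and cell cycle genes changed sides of the share over all genes under the same limit, and Hox genes did so for peaks within 500 bp of the start site. At a reciprocal overlap of 50%, proteasome, histone, autophagy and SNARE genes changed sides. The other classes kept their side under these alternatives.

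Classes of B cell biology were also above the share over all genes. Among B lineage transcription factors 13 of 29 genes (44.8%, 28.4 to 62.5) had a shared peak. They were led by Foxo1, with 17 and 16 fragments, and Ikzf2, with 12 and 34. Among BCR signalling genes 24 of 63 (38.1%, 27.1 to 50.4) had one, of which 2 were strong members. For genes of these classes with a high-CpG start site the shares were 56.5% and 52.3%. Some of the genes in both classes, and among the actin regulators (Arhgef18), were named in the study, so these 3 classes are not independent of it.

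Among classes of membrane traffic, 25 of 59 Rab GTPases (42.4%, 30.6 to 55.1), 11 of 38 SNARE proteins (28.9%, 17 to 44.8) and 11 of 43 autophagy genes (25.6%, 14.9 to 40.2) had a shared peak. Of those with a high-CpG start site the shares were 53.7%, 33.3% and 26.3%, so that only the Rab class was above the 36.6% over all such genes. The Rab class was led by Rab37 (11 and 24 fragments) and Rab11a (11 and 12), and the autophagy class by Ambra1 (13 and 21) and Ulk1 (12 and 16). Vamp4 was the strong member among the SNAREs, and Vamp5 came next with 11 and 14. Of the vacuolar ATPase subunits, 1 of 24 (4.17%, 0.739 to 20.2) had one. It was Atp6v0a4, with 7 and 10 fragments.

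Ion channels (65 of 188, 34.6%, 28.1 to 41.6), Zbtb genes (14 of 40, 35%, 22.1 to 50.5), Hox genes (13 of 39, 33.3%, 20.6 to 49.0), translation initiation factors (15 of 45, 33.3%, 21.4 to 47.9) and splicing factors (22 of 68, 32.4%, 22.4 to 44.2) were above the share over all genes too, which the interval of the Hox genes contained. Among genes with a high-CpG start site, set beside 36.6% over all such genes, the shares were 55.9% for ion channels, 43.8% for Zbtb and 42.9% for Hox genes, but 34.9% for initiation factors and 31.7% for splicing factors. The ion channels included Gria2, a glutamate receptor subunit, with 12 and 16 fragments, and Kcnj6, a potassium channel, with 16 and 13. The Hox genes Hoxd4 (12 and 14) and Hoxb4 (11 and 17) had their summits 546 and 970 bp after the start site. The 2 leading Zbtb genes were Zbtb7c (12 and 18) and Zbtb46 (12 and 25). Initiation factors were led by Eif2b3 (28 and 16) and Eif5b (12 and 16), and splicing factors by the strong members Snrpb2 (54 and 31) and Snrpa1 (41 and 28). Cyclins and other cell cycle genes had 18 of 67 (26.9%, 17.7 to 38.5, and 30% of those with a high-CpG start site), with Tfdp2 at 16 and 20 fragments and Rb1 at 12 and 18.

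Several classes of housekeeping genes were below the share over all genes, although most of their start sites are rich in CpG. Cytosolic ribosomal proteins had 6 of 84 (7.14%, 3.31 to 14.7), with 94.0% of the class at high-CpG start sites, mitochondrial ribosomal proteins had 5 of 78 (6.41%, 2.77 to 14.1) and oxidative phosphorylation subunits 8 of 84 (9.52%, 4.91 to 17.7). Aminoacyl-tRNA synthetases had 2 of 37 (5.41%, 1.5 to 17.7). Each of these 4 classes nevertheless held 1 strong member, namely Rpl22, Mrps23, Ndufa5 and Yars (20 and 17 fragments). The second gene of each was lower, with Rpl17 at 15 and 10, Mrps15 at 11 and 11, Uqcrc2 at 11 and 12 and Ears2 at 9 and 15. The proteasome had 8 of 48 (16.7%, 8.70 to 29.6), of which Psmd3 (35 and 45) and Psma1 (26 and 39) were strong.

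Replication-dependent histones had 11 of 65 (16.9%, 9.72 to 27.8), led by Hist1h3b (11 and 25 fragments) and Hist1h3g (11 and 22), whose summit sequences had 8 and 6 copies in the genome and could hold fragments of related genes. With single-copy summits alone the share of the histones was 0%, so each of the 11 rested on repeated sequence. C2H2 zinc finger genes had 72 of 421 (17.1%, 13.8 to 21), led by Zfp365 (14 and 18) and Zfp580 (13 and 16). Olfactory and vomeronasal receptors had 15 of 1420 (1.06%, 0.641 to 1.74), and 0.282% with single-copy summits alone. The leading ones were Olfr1504 (20 and 93) and Olfr1420 (12 and 31), both with summits in wholly soft-masked sequence more than 1000 bp before the start site.

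**Figure D5:**
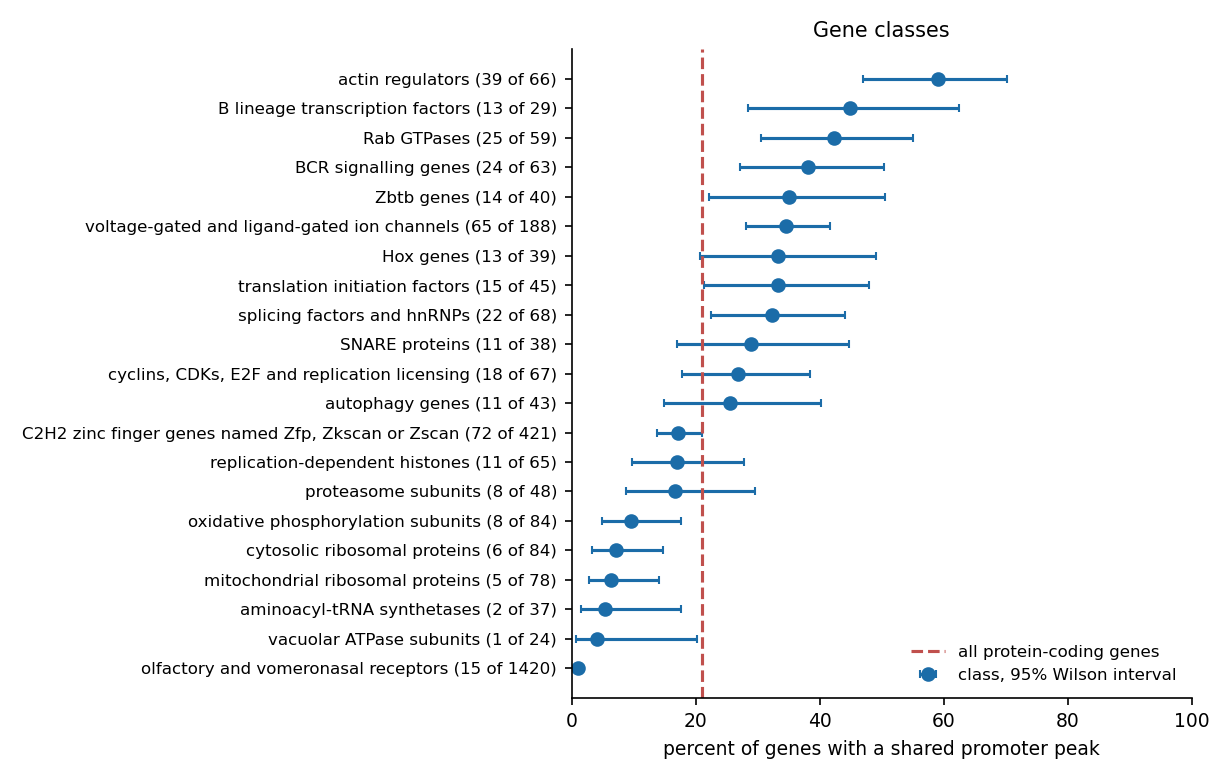
Percent of the protein-coding genes of each class that have a shared promoter peak (horizontal), with the counts beside the class name, points for the share and bars for the 95% Wilson interval. The dashed line is the share over all protein-coding genes, 21.1%; actin regulators lie highest at 59.1%, and ribosomal, respiratory and receptor classes lie below the line.

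Genes known from MIZ-1 biology were not uniformly among the members. Besides Vamp4, Rpl22 and Ambra1, these included Zbtb17 itself, with 9 and 17 fragments and the summits 421 and 431 bp after the start site. Bcl2, which protects lymphocytes from apoptosis, had 13 fragments in both libraries, with the summits 18 and 268 bp after the start site. Myc had a MIZ-1WT promoter peak that overlapped no MIZ-1DPOZ peak. Socs1 had a promoter peak in the MIZ-1DPOZ list only, and Cdkn1a had none in either list.

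The members were spread over the genome, with shared peaks at 14.5% to 26.8% of the protein-coding genes of each autosome, 8.02% of those of the X and 1.09% of those of the Y chromosome. Of the 4622 genes, 4009 had 1 member, 561 had 2 and 52 had 3 or more. Rims2, which encodes a scaffold of the synaptic active zone, had 5.

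The edges of the rule were as follows. The least overlaps were 1 base at Mier1 and Tmem144 and 2 at Ccdc13, and 48 members shared fewer than 10 bases. Just outside were the MIZ-1WT peaks of Ets1, Ptp4a1, Usp53, Usp9x and Zfhx3, which abutted a MIZ-1DPOZ peak without sharing a base, and 311 MIZ-1WT-only peaks lay within 100 bp of one. The member farthest before its start site was at Kcnh2, with a gap of 1994 bp, and the one farthest after it at Elmsan1, with 995 bp. Shared peaks next to Cftr and Skint1, 2001 bp before the start site, and next to H2-D1, 1004 bp after it, fell outside.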

How the data were processed

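ChIP-seq of MIZ-1 was analysed from the 2 deposited peak lists of B220+ splenocytes, with 1 ChIP library per genotype. The input libraries were not analysed here. In the study's methods the authors used Trimmomatic for trimming, bwa for alignment to mm10 and MACS2 for narrow peaks of each genotype, whereas the submitters' processing notes name Bowtie2 2.2.6 and MACS2 2.1.0. The cutoff and the treatment of duplicates are not given in the sources used here. For each peak the authors deposited the fold enrichment at the summit, a ratio to the local background, and the −log10 of a p-value and of a q-value. Peak and summit positions, also deposited, were taken as they are.

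Start sites were those of GENCODE basic M21 on GRCm38, the same assembly as mm10 (77221 sites, 41525 of them protein-coding). Pileups were solved from the deposited fold and −log10 p, and came out whole within 0.001 for over 99.9% of the peaks. Reads were not counted, so the depth behind a peak is its pileup. GC, CpG and promoter elements were read within 100 bp on either side of the summit, sequences and the pattern within 50 bp. The CpG class was taken from windows of 500 bp, from 1000 bp before to 500 bp after a start site. Summits were called single-copy if, by the median of 5 stretches of 50 bases near them, they occurred 1 time in the genome. Shares carry 95% Wilson intervals. The 5 hexamers most in excess at the strong members over the lower single-copy members seeded the pattern search (26 columns, letters kept at 60% or more). Pileup solving and search were checked on simulated data.

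Members, gene classes, named genes and alternatives were chosen with earlier results of these data known. Named genes were the 10 with the largest smaller paired −log10 q among single-copy members, the 2 leading ones of each class, 9 genes of MIZ-1 biology, the 3 widest peaks and those at the edges of the rule, with ties broken by symbol. Only part of the named genes and of the sequence windows chosen by q-value and CpG is printed, since some items are not reported here. The strong members, the pattern and the shorter words were chosen after seeing the data. Alternatives were a stricter cutoff, other definitions of overlap, promoter and nearest start site, single-copy summits and a wider window. The tools were numba 0.67.0 and scipy 1.17.1 for the counts of sequences and the intervals, pandas 2.3.3 and numpy 2.4.6 for the tables and matplotlib 3.10.9 for the plots, under Python 3.11.15.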

Additional observations from a re-analysis of the deposited data

How the results depend on the processing

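No paired analysis was possible because a single ChIP library stood for either genotype. The 5292 members at 4622 genes (73.5% of the MIZ-1WT peaks at protein-coding promoters, 21.1% of protein-coding genes) became 1202 at 1174 (61.9%, 5.35%) at a −log10 q of at least 5 in both lists, 2451 at 2354 (34.0%, 10.7%) at a reciprocal overlap of 50% and 2906 at 2754 (40.3%) for summits within 100 bp. Peaks within 500 bp of the start site gave 75.6% and 19.6%, and single-copy summits 20.3% of genes. In the order of the q cutoff, the reciprocal overlap, the summit distance and the 500 bp window, the median MIZ-1WT width (209 bp) was 259, 246, 202 and 214 bp, and the median CpG ratio (0.882) was 0.895, 0.867, 0.866 and 0.889. In the order of the first 3 of these, the distance between summits (89 bp) was 76, 55 and 42 bp and the MIZ-1DPOZ width (358 bp) 408.5, 293 and 313 bp. The median position (112 bp) was 85 bp and the share of summits near the start site (32.7%) was 38.1% at the q cutoff, and this share was 36.0% within 500 bp. The share of high-CpG promoters (86.9%) was 84.1% at reciprocal overlap, 83.0% for near summits, 89.3% within 500 bp and 88.3% for single-copy summits. GC content (74.1%) was 73.6% under both stricter overlaps and, in the wider window, 70.7%, with a CpG ratio of 0.849. Assignment by the summit gave 5296 members at 4627 genes, with a median position of 113 bp. The definitions of overlap and promoter act on the values by construction, and the cause of other changes was not tested.

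Alternatives for the strong members were chosen after seeing the data. At 15 fragments instead of 20 there were 199, with a median position of 18 bp after the start site, 51 bp between summits and the pattern in 22.6%. Chosen on the MIZ-1DPOZ pileup, the ratio of pileups was 0.847. With 3 mismatches the pattern was found in 28.4%, and within 31 bp of the summit in 25%. Of the 21 gene classes, proteasome, histone, Zbtb, autophagy, SNARE and cell cycle genes changed sides of the share over all genes under the same limit at the q cutoff, proteasome, histone, autophagy and SNARE genes at reciprocal overlap, and Hox genes within 500 bp. With single-copy summits the share of histone genes fell from 16.9% to 0%.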
